A study of Mus musculus with 9 samples.

Results

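The effector genes of bone resorption and cell fusion were followed in RAW264.7 cells. This mouse macrophage line forms osteoclast-like cells under RANKL, the cytokine that drives osteoclast differentiation. The set was put together by gene name from the known work of the osteoclast, with no cutoff on a measured value but with earlier results of these data known, and it held 10 of the 23282 gene rows of each library. The members were Acp5, Ctsk, Mmp9 and Mmp14, which act on bone matrix, Car2, Clcn7 and Ostm1, which serve acid secretion, Dcstamp and Ocstamp, which serve cell fusion, and Calcr, a hormone receptor. Each had 1 row in the files. The cells were labelled as of strain BALB/c and as passage 30. They received RANKL at 50 ng/mL alone (the negative control), or were treated with heat-killed Propionibacterium freudenreichii MJ2 at 10000000 cells/mL or with surface proteins extracted from that strain at 10 µg/mL, for 4 days. For single libraries the labels do not give RANKL as an agent beside heat-killed MJ2 or surface proteins, although the methods of the study describe RANKL with the surface proteins. There were 3 libraries in each group, all from 1 cell line, and no untreated group was analysed here. The labels do not say whether the 3 libraries of a group came from separate cultures, so p-values measure the spread between these libraries, which may be technical.

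Osteoclasts are large cells with several nuclei that form when macrophage precursors fuse under RANKL. They seal off a patch of bone, pump acid onto it to dissolve the mineral, and release proteases that digest the exposed collagen. The genes for these steps are switched on late in differentiation, largely under the transcription factor NFATc1.

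Values are given as adjusted reads, which are 2 raised to the deposited log2 value, minus 1. The libraries held 5930926 to 6503682 adjusted reads each. Values near 1 adjusted read had a median of 0.924 to 1.11 per library, which was taken as the worth of 1 read. Because only values near 1 were used, this cannot test the scaling. Fewer than 3 reads in a library were treated as the floor of detection, for counting error only. The libraries read the 3′ end of each mRNA, so a level does not grow with the length of the transcript. Differences were tested with limma over all genes that reached 10 adjusted reads in 3 or more of the 6 libraries of a comparison. A gene passed where its Benjamini-Hochberg adjusted p was below 0.05 and its level differed 2-fold or more. An exact two-sided permutation test over 3 libraries against 3 cannot give a p below 0.1. Replicate 3 of RANKL alone stood apart in this gene set: it was the highest of its group for 9 of the 10 members, whereas replicate 1 was the lowest for 7. Comparisons of the members with RANKL alone are therefore also given without that library.

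With surface proteins 5 of the members fell against RANKL alone, where 7.32% of all genes tested fell. With heat-killed MJ2 1 member fell (0.897% of all genes tested), a call lost in 8 of 17 alternatives, and the level of the set as a whole was ordered RANKL alone, heat-killed MJ2, surface proteins. Summed over the 10 genes, RANKL alone gave 21217, 21655 and 28135 adjusted reads. The heat-killed MJ2 libraries gave 17410, 15204 and 19213 adjusted reads, and the surface protein libraries gave 7677, 5965 and 8348. The 3 groups did not overlap. As a share of each library, the members made up 0.342% to 0.456% with RANKL alone, 0.244% to 0.321% with heat-killed MJ2 and 0.0917% to 0.131% with surface proteins. The RANKL alone mean was 23669 ± 3874 (SD, n = 3), and the surface protein mean of 7330 ± 1229 (SD, n = 3) was 3.23-fold lower. With heat-killed MJ2 it was 17276 ± 2008 (SD, n = 3), 1.37-fold below RANKL alone and 2.36-fold above surface proteins. Without replicate 3 of RANKL alone these distances from RANKL alone were 2.92-fold for surface proteins and 1.24-fold for heat-killed MJ2. The sum of the 8 macrophage markers was 15719 to 17431 adjusted reads with RANKL alone, 22974 to 23689 with heat-killed MJ2 and 18803 to 20334 with surface proteins, so the groups did not overlap. In bulk RNA fewer osteoclast-like cells and less RNA of these genes per cell cannot be told apart, and the part of the macrophage markers in the members' differences was not tested.

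By role, the summed fusion genes were 5.67-fold lower with surface proteins than with RANKL alone, the summed matrix genes 3.13-fold and the summed acid genes 3.09-fold (4.36-fold, 2.7-fold and 3.32-fold without replicate 3 of RANKL alone). Between heat-killed MJ2 and RANKL alone the matrix sum was 1.57-fold and the fusion sum 1.73-fold lower with MJ2 (1.36-fold and 1.33-fold without replicate 3 of RANKL alone), and the acid sums overlapped, at 4680 to 7032 and 4754 to 7186 adjusted reads. Acp5, Ctsk and Car2 together held 71.9% to 86.2% of the members' reads in every library, so the total over all members follows these 3 genes. The acid sum follows Car2, which held 4994 of its 5601 adjusted reads in the mean of RANKL alone. The other acid genes did not pass with surface proteins (log2 fold change -0.02 for Clcn7 and 0.43 for Ostm1). The fusion sum follows Dcstamp, with 1426 of 1802 adjusted reads in the mean of RANKL alone.

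**Figure D1:**
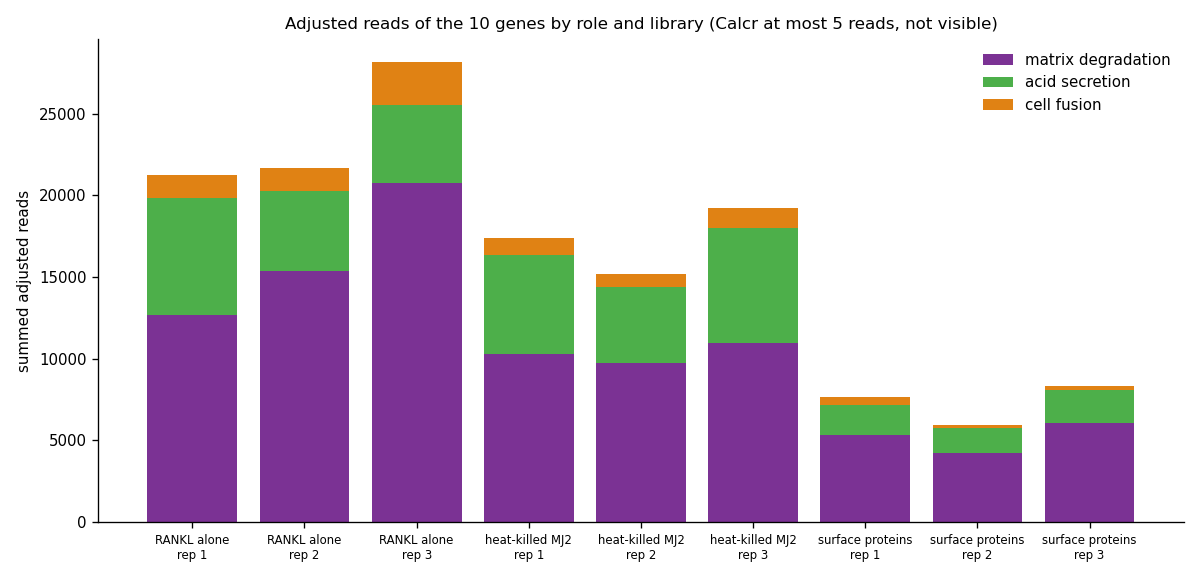
Stacked bars show the adjusted reads of the matrix degradation, acid secretion and cell fusion genes, summed in each of the 9 libraries (x axis: group and replicate; y axis: summed adjusted reads, starting at 0). With Calcr, which adds at most 4.93 reads to a library, the totals run from 21217 to 28135 with RANKL alone, from 15204 to 19213 with heat-killed MJ2 and from 5965 to 8348 with surface proteins.

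Among the 8 members tested between surface proteins and RANKL alone, 5 fell and the other 3 did not pass. Over the 10874 genes tested, 7.32% fell, 10.2% rose and 17.5% changed in either direction. The median log2 fold change of the 8 was -1.69, beside -0.01 over all genes tested. Ocstamp ranked 14 and Acp5 96 among these genes from the lowest log2 fold change up. Counted over all 10 members, the groups did not overlap for 7, each lower with surface proteins. These include Mmp14, which did not reach the filter and was not tested. Among the genes tested, 23.7% had groups that did not overlap in that direction and 48.4% in either. Without replicate 3 of RANKL alone the same 5 members passed.

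Between heat-killed MJ2 and RANKL alone, 1 of 9 members tested fell, beside 0.897% of 10814 genes that fell, 3.37% that rose and 4.26% that changed. Without replicate 3 of RANKL alone the call of that member, Acp5, was lost (adjusted p = 0.0756 from limma). The median log2 fold change of the 9 members was -0.24, and that of all genes tested was -0.00. The groups did not overlap for 4 of the 10 members (Acp5, Ctsk, Ostm1 and Ocstamp), each lower with heat-killed MJ2, and the share over all genes was 14.7% in that direction and 30.2% in either. Both comparisons share the RANKL alone libraries, so they are not independent of each other. Between surface proteins and heat-killed MJ2, Mmp14 entered the test only through its heat-killed MJ2 libraries and is left out of the count. Of the other 8 members tested, 5 were lower with surface proteins, beside 4.97% of 10916 genes lower, 5.08% higher and 10.1% changed, with a median log2 fold change of -1.42 for the 8 members and 0.03 for all genes. Of these 5, Acp5 and Dcstamp lost their calls with no filter and without replicate 1 or 3 of heat-killed MJ2 or replicate 3 of surface proteins, which left 3, and 1 of the pair lost its call on leaving out any of the other libraries, which left 4. Counted over all 10 members, the groups did not overlap for 7 lower and 1 higher (Ostm1) with surface proteins. The 7 include Mmp14, which is left out of the count above, so it adds no support. Over all genes tested, 20.1% did not overlap in the lower direction and 42.3% in either. Surface proteins and heat-killed MJ2 were given in different units (µg/mL and cells/mL), so this comparison is one of preparations and not of matched doses.

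**Figure D2:**
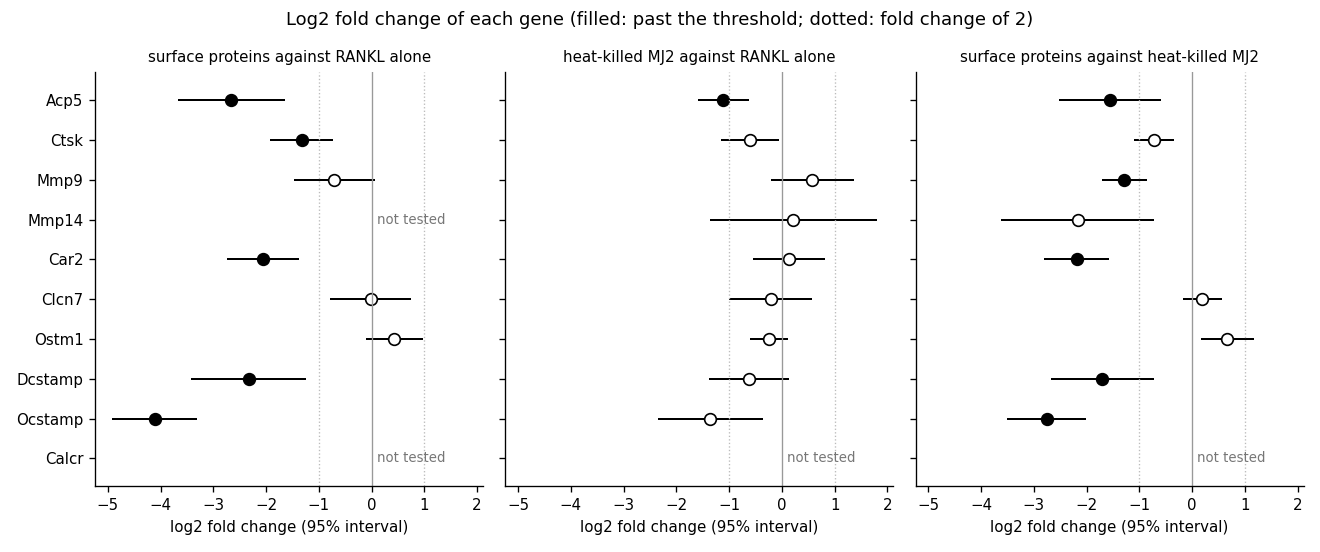
Log2 fold changes from limma are shown for each member (rows) in the 3 comparisons (panels), with lines for the 95% interval, filled points for genes past the threshold and dotted lines at a fold change of 2. With surface proteins against RANKL alone, Acp5, Ctsk, Car2, Dcstamp and Ocstamp are filled and lie below 0, while Clcn7 lies at -0.02 and Ostm1 at 0.43.

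The matrix-degrading genes differed among themselves. Acp5 encodes tartrate-resistant acid phosphatase, the enzyme stained to count osteoclasts, and lies at chr9:22126727-22135711 on the minus strand (GRCm38). It gave 4955, 6854 and 7423 adjusted reads with RANKL alone, 2895, 2692 and 3204 with heat-killed MJ2 and 1332, 525 and 1416 with surface proteins. The 3 groups were ordered without overlap, and replicate 2 of the surface proteins lay far below the other libraries of its group. With surface proteins Acp5 fell by 2.66 on the log2 scale against RANKL alone (SE 0.41, adjusted p = 0.00635), 6.33-fold, and its log2 fold change was -2.55 without replicate 3 of RANKL alone (adjusted p = 0.0236). With heat-killed MJ2 it fell by 1.11 (SE 0.19, adjusted p = 0.0291), 2.16-fold. That call was lost on leaving out any 1 library other than replicate 1 of RANKL alone. Over all 6 omissions adjusted p ran from 0.0219 to 0.106, while the log2 fold change stayed between -1.29 and -0.995. Acp5 was also lower with surface proteins than with heat-killed MJ2, by a log2 difference of -1.55 (SE 0.39, adjusted p = 0.0425), a call that was kept only on leaving out replicate 2 of the surface proteins (range of adjusted p over the 6 omissions 0.0318 to 0.118).

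Ctsk encodes cathepsin K, the main collagenase of the osteoclast, and lies at chr3:95499256-95509362 on the plus strand. It had the highest mean log2 value of the members in each group, although with heat-killed MJ2 its libraries overlapped those of Car2. RANKL alone gave 6543, 7584 and 11182 adjusted reads, heat-killed MJ2 gave 5560, 5238 and 5389, and surface proteins gave 3258, 2861 and 3752. The groups did not overlap in any comparison, and the heat-killed MJ2 libraries were close to each other. With surface proteins Ctsk fell by 1.33 (SE 0.24, adjusted p = 0.0100), 2.51-fold, and its log2 fold change was -1.11 without replicate 3 of RANKL alone (adjusted p = 0.0188). Heat-killed MJ2 against RANKL alone gave -0.61 (95% interval -1.14 to -0.08, adjusted p = 0.170), and -0.39 without that library. Between surface proteins and heat-killed MJ2 the log2 difference was -0.72 (SE 0.15, adjusted p = 0.0260), past the p limit but short of a fold change of 2. The number of Ctsk reads per Acp5 read was 1.11 to 1.51 with RANKL alone, 1.68 to 1.95 with heat-killed MJ2 and 2.44 to 5.45 with surface proteins, so the groups were ordered without overlap in this ratio too.

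Promoter windows of 3 members are shown, for Acp5 and Ctsk because they fell together and for Clcn7 because it did not, since NFATc1, AP-1 and MITF family factors act on osteoclast genes. RefSeq's table for GRCm38.p6, with 250 bases before to 50 bases after each start, held 10 windows for Ctsk, Calcr, Acp5, Ostm1, Mmp14 and Clcn7. Capitals mark every match, on either strand, to the NFAT core GGAAA, the AP-1 site TGANTCA or the E-box letters TCANGTG. This last pattern is loose and takes in sites of MITF and TFE factors as well as other E-boxes. The letters of this E-box can match both strands at the same place, and such matches run together. The windows printed are Ctsk at chr3:95498960-95499259 (plus strand), the Acp5 window with most matches at chr9:22130549-22130848 (minus strand) and the Clcn7 window with most matches at chr17:25133141-25133440 (plus strand), chosen after the matches were counted.
Ctsk: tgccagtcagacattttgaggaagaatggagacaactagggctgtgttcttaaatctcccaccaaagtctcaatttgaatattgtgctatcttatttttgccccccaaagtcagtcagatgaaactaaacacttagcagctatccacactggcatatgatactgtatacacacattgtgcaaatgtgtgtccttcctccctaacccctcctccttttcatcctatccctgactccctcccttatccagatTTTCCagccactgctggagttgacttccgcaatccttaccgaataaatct
Acp5: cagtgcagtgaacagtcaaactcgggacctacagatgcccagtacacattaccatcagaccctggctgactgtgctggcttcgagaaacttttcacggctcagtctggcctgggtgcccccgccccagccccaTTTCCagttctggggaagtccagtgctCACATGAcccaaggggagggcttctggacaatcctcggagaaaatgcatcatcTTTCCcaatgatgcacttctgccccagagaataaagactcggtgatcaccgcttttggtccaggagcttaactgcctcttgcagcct
Clcn7: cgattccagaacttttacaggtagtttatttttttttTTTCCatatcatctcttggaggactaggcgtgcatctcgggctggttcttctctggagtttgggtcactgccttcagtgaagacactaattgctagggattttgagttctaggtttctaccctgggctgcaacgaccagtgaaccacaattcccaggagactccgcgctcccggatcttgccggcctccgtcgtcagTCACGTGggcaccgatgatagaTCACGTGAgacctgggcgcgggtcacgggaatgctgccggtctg
The NFAT core was found in 7 of the 10 windows, and 61.3% of 32851 promoter windows of the table hold it. The E-box letters were found in 4 windows (1 of Acp5, 1 of Calcr and both of Clcn7), beside 14.3% of all windows, and neither figure counts MITF or TFE sites alone. No window of the 10 held the AP-1 letters, which 7.81% of all windows do. A match is a description of letters and not a bound site, and reads from the 3′ end do not tell which start was used.

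Mmp9 did not pass against RANKL alone, and Mmp14 was not tested between surface proteins and RANKL alone. Mmp9 encodes the secreted gelatinase that trims partly degraded collagen and lies at chr2:164940780-164955850 on the plus strand. It gave 1152, 943 and 2099 adjusted reads with RANKL alone, 1850, 1757 and 2342 with heat-killed MJ2 and 721, 823 and 886 with surface proteins. The surface protein libraries all lay below those of RANKL alone. The highest group was heat-killed MJ2, whose libraries overlapped those of RANKL alone through replicate 3 of the latter. The log2 fold change of Mmp9 with surface proteins against RANKL alone was -0.71 (95% interval -1.45 to 0.04, adjusted p = 0.136), or -0.37 without that library, and with heat-killed MJ2 it was 0.58 (interval -0.19 to 1.34, adjusted p = 0.337), or 0.92 without it. Against heat-killed MJ2 Mmp9 was lower with surface proteins, by a log2 difference of -1.28 (SE 0.17, adjusted p = 0.0102), 2.44-fold. Mmp14, the membrane-bound metalloproteinase at chr14:54431612-54445364 on the plus strand, stood near the limit of the filter. Its libraries held 8.39, 8.68 and 40.6 adjusted reads with RANKL alone, 11.3, 28.1 and 15.7 with heat-killed MJ2 and 0.952, 2.83 and 7.77 with surface proteins. Every surface protein library lay below every other library, but Mmp14 was not tested against RANKL alone, where only 1 library reached 10 adjusted reads. Its log2 fold change with heat-killed MJ2 against RANKL alone was 0.22 (95% interval -1.34 to 1.78, adjusted p = 0.875), or 0.93 without replicate 3 of RANKL alone. It entered the comparison of surface proteins with heat-killed MJ2 only through the heat-killed MJ2 libraries, so its log2 difference of -2.17 (adjusted p = 0.0515) is given as a value and not as support.

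Of the acid secretion genes, Car2 fell with surface proteins, and Clcn7 and Ostm1 did not pass in any comparison. Car2 encodes carbonic anhydrase II, which supplies the protons for acid secretion, and lies at chr3:14886273-14900770 on the plus strand. It gave 6788, 4190 and 4005 adjusted reads with RANKL alone, 5540, 4132 and 6557 with heat-killed MJ2 and 1286, 900 and 1369 with surface proteins. The surface protein libraries lay far below all 6 others, and RANKL alone and heat-killed MJ2 overlapped across most of their range. With surface proteins Car2 fell by 2.05 on the log2 scale against RANKL alone (SE 0.27, adjusted p = 0.00387), 4.15-fold, and its log2 fold change was -2.19 without replicate 3 of RANKL alone. Against heat-killed MJ2 it was 4.55-fold lower (log2 difference -2.19, SE 0.25, adjusted p = 0.00728). Heat-killed MJ2 against RANKL alone gave 0.13 (95% interval -0.53 to 0.80, adjusted p = 0.817), or -0.0050 without that library. Car2 was the member for which replicate 1 of RANKL alone was the highest and replicate 3 the lowest.

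Clcn7 encodes the chloride and proton exchanger of the ruffled border and lysosome, and Ostm1 encodes its partner subunit. Clcn7, at chr17:25133391-25162104 on the plus strand, gave 267, 533 and 584 adjusted reads with RANKL alone, 350, 433 and 352 with heat-killed MJ2 and 407, 433 and 454 with surface proteins. The groups overlapped in all comparisons, and RANKL alone was the most scattered. Its log2 fold change was -0.02 with surface proteins (95% interval -0.77 to 0.73) and -0.21 with heat-killed MJ2 (interval -0.98 to 0.55), or 0.19 and -0.0048 without replicate 3 of RANKL alone, so changes of up to about 1 on this scale are not excluded by the intervals. Ostm1, at chr10:42583822-42702459 on the plus strand, gave 130.3, 140.1 and 164 adjusted reads with RANKL alone, 128, 115 and 123 with heat-killed MJ2 and 147, 218 and 229 with surface proteins. It was the only member whose 3 surface protein libraries all lay above the heat-killed MJ2 libraries. Its log2 difference there was 0.67 (interval 0.18 to 1.16, adjusted p = 0.0674), and against RANKL alone it was 0.43 (interval -0.10 to 0.95, adjusted p = 0.186), or 0.52 without replicate 3 of RANKL alone. With heat-killed MJ2 against RANKL alone it was -0.24 (interval -0.59 to 0.11, adjusted p = 0.378), or -0.15 without that library. The number of Clcn7 reads per Ostm1 read was 2.05 to 3.81 with RANKL alone, 2.74 to 3.76 with heat-killed MJ2 and 1.98 to 2.77 with surface proteins, with overlap between all groups.

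**Figure D3:**
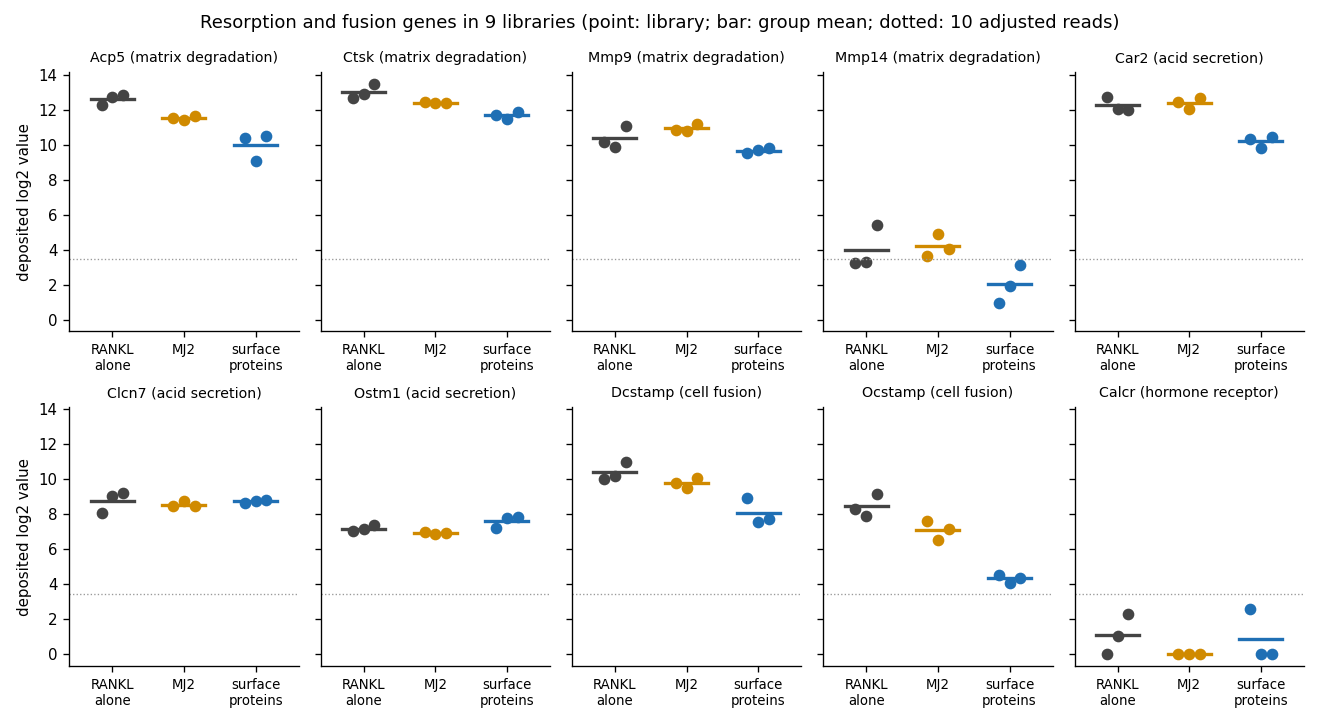
Each panel plots 1 member, with the deposited log2 value of every library (points) and the group mean (bars) for RANKL alone, heat-killed MJ2 and surface proteins, and a dotted line at 10 adjusted reads. Ocstamp steps down from 8.46 to 7.11 to 4.35 in mean log2 value, Car2 is at 12.24, 12.38 and 10.19, and Calcr stays under the dotted line.

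Both fusion genes fell with surface proteins. Dcstamp encodes the dendritic cell-specific transmembrane protein that precursors need in order to fuse, and lies at chr15:39745930-39760938 on the plus strand. It gave 1051, 1159 and 2068 adjusted reads with RANKL alone, 879, 719 and 1088 with heat-killed MJ2 and 497, 185 and 213 with surface proteins. The surface protein libraries lay below all others, with replicate 1 the highest of them, and heat-killed MJ2 overlapped RANKL alone. With surface proteins Dcstamp fell by 2.33 (SE 0.45, adjusted p = 0.0123), 5.03-fold, and its log2 fold change was -2.03 without replicate 3 of RANKL alone (adjusted p = 0.0349). With heat-killed MJ2 it was -0.62 (95% interval -1.36 to 0.11, adjusted p = 0.285), or -0.32 without that library. Between surface proteins and heat-killed MJ2 it was 3.26-fold lower with the former (log2 difference -1.71, SE 0.40, adjusted p = 0.0345), a call lost without replicate 1 or 3 of heat-killed MJ2 or replicate 2 or 3 of the surface proteins (adjusted p over the 6 omissions 0.0128 to 0.105).

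Ocstamp encodes the osteoclast stimulatory transmembrane protein, which acts with Dcstamp in fusion, and lies at chr2:165393760-165400405 on the minus strand. It gave 322, 240.4 and 564 adjusted reads with RANKL alone, 197.5, 90.9 and 143 with heat-killed MJ2 and 22.5, 16.2 and 19.9 with surface proteins. The 3 groups did not overlap, and the surface protein libraries were close together and well above the floor of 3 reads. With surface proteins Ocstamp fell by 4.11 (SE 0.33, adjusted p = 0.000849), 17.3-fold, and its log2 fold change was -3.78 without replicate 3 of RANKL alone (adjusted p = 0.00136). Against heat-killed MJ2 it was 6.77-fold lower (log2 difference -2.76, SE 0.30, adjusted p = 0.00678). Heat-killed MJ2 against RANKL alone gave -1.36 (95% interval -2.33 to -0.38, adjusted p = 0.112), and -1.02 without replicate 3 of RANKL alone, so the groups did not overlap but the gene did not pass. There were 3.27 to 4.82 Dcstamp reads for each Ocstamp read with RANKL alone, 4.45 to 7.91 with heat-killed MJ2 and 10.7 to 22.1 with surface proteins, and the surface protein libraries did not overlap the others in this ratio.

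Calcr, the calcitonin receptor gene at chr6:3685680-3764714 on the minus strand, marks mature osteoclasts and was at or near the floor. It held 0, 1.08 and 3.97 adjusted reads with RANKL alone, at most 0.00556 with heat-killed MJ2 and 4.93, 0 and 0.0210 with surface proteins. Replicate 2 of RANKL alone, replicate 1 of heat-killed MJ2 and replicate 3 of surface proteins each had 15503 rows above 0. The other libraries had 12407 to 13207. Values far below 1 in those libraries, such as 0.00556 and 0.0210, do not amount to a read. No comparison tested it under the filter and no fold is given, because it did not reach 10 adjusted reads in any library. With no filter, where all 10 members were tested, it was not called. A difference in Calcr was not detectable at this depth.

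The order of the members by level differed between groups. With RANKL alone the mean log2 values ran Ctsk, Acp5, Car2, Dcstamp, Mmp9, Clcn7, Ocstamp, Ostm1, Mmp14 and Calcr, and neighbours overlapped between Ctsk and Acp5, Acp5 and Car2, Dcstamp and Mmp9, and Clcn7 and Ocstamp. With heat-killed MJ2 Car2 stood next to Ctsk with overlapping libraries, and Mmp9 stood above Dcstamp without overlap. With surface proteins Ostm1 stood above Ocstamp without overlap, at 198 ± 44.7 against 19.5 ± 3.13 adjusted reads (SD, n = 3), the reverse of RANKL alone.

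The genes most like each member over the 9 libraries were found by the root mean square difference of log2 values after each gene's own mean was taken off, among 11184 other genes. Closest to Acp5 was Eno3, the muscle-type enolase, at 0.212, with mean log2 values of 9.78, 8.36 and 7.24 in RANKL alone, heat-killed MJ2 and surface proteins, followed by S100a3 at 0.237 and Cst7 at 0.244. Closest to Ctsk was Atp6v1b2, a subunit of the vacuolar proton pump, at 0.125, followed by Pip5k1c at 0.126 and Tgfbr1, a TGF-β receptor, at 0.148. These genes shared the stepwise order of the 3 groups with the member they resembled. Closest to Car2 were Mcm3, a subunit of the replicative helicase, at 0.124, Tk1, thymidine kinase, at 0.156 and Chaf1a, a chromatin assembly factor, at 0.169. Mcm3 had mean log2 values of 9.37, 9.45 and 7.34 in the same order of groups, beside 12.24, 12.38 and 10.19 for Car2.

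The remaining members had looser or flatter matches. The nearest genes were Pls1 (0.310), Nudt22 (0.314) and Hmx2 (0.333) for Dcstamp, and Ak1 (0.452), Pmepa1 (0.511) and Kbtbd11 (0.515) for Ocstamp. For Mmp9 they were 2900026A02Rik (0.228), Hn1 (0.235) and Paxip1 (0.240), and for Mmp14 Zfp296 (0.530), Cox7a1 (0.572) and Tcte3 (0.576). Clcn7 was nearest to Gfm2 (0.142), Wars2 (0.150) and Ipo7 (0.154), and Ostm1 to Mfap3 (0.0932), Pde1b (0.107) and Erlin2 (0.113). Among the members themselves the smallest difference was that of Clcn7 with Ostm1 at 0.362, then Acp5 with Dcstamp at 0.443. By rank the order was the other way: Dcstamp was number 35 of 11192 genes for Acp5, and Ostm1 was number 1965 for Clcn7. The fusion partners Dcstamp and Ocstamp stood 0.823 apart. All values here rest on the same 9 libraries and are descriptions.

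**Figure D4:**
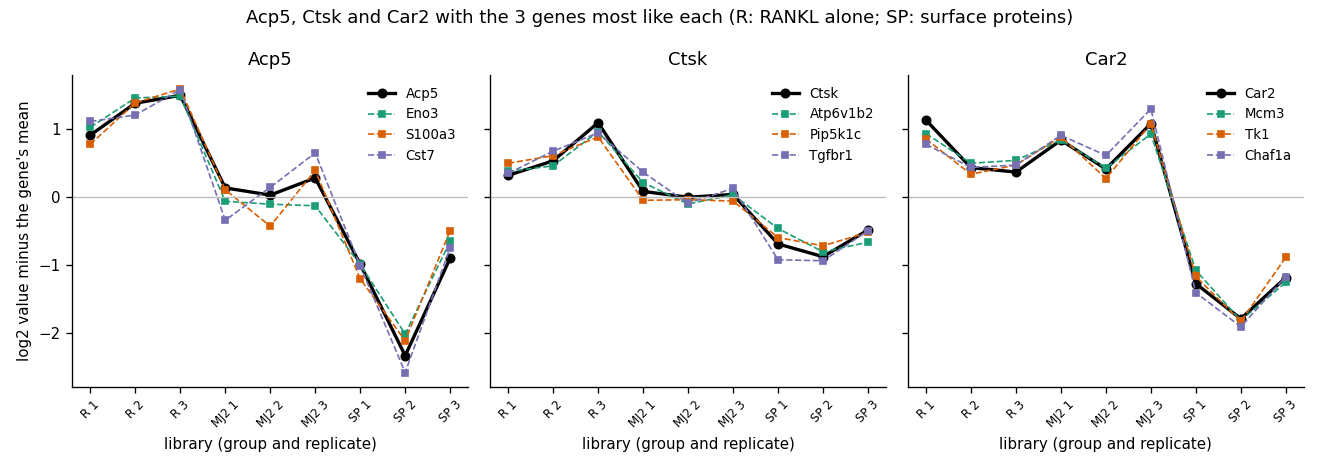
Lines show the log2 value minus the gene's mean over the 9 libraries for Acp5, Ctsk and Car2 (black) and the 3 genes most like each (x axis: R for RANKL alone, MJ2 for heat-killed MJ2, SP for surface proteins, with replicate number). Acp5 and Ctsk step down from RANKL alone to heat-killed MJ2 to surface proteins, while Car2 and Mcm3 lie above 0 in the first 6 libraries and below 0 in the last 3.

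The genes around the members were taken from lists of other matrix proteases and inhibitors, acid secretion partners, fusion and adhesion partners, and RANKL pathway regulators. Of 17 proteases and inhibitors tested with surface proteins against RANKL alone, Adamts1, a secreted metalloproteinase gene, entered only through its surface protein libraries (27.4 to 31.7 adjusted reads, against 0.858, 0.0815 and 5.92 with RANKL alone). Of the other 16, 6 rose and 3 fell, beside 10.2% and 7.32% of all genes tested, with 0.65 as their median on the log2 scale. Ctsl, the lysosomal cathepsin L, rose by 3.11 (SE 0.26, adjusted p = 0.000909). Ctsb, Ctsc, Ctsd, Mmp19 and Plaur, the urokinase receptor gene, were the other genes that rose. Plau, which encodes urokinase, fell by 2.47 (SE 0.40, adjusted p = 0.00749), and Timp2, a metalloproteinase inhibitor, by 1.21 (SE 0.27, adjusted p = 0.0206), and the protease inhibitor gene Cst3 also fell. Ctsk fell while 4 other cathepsin genes on the list rose, and Ctsa (log2 fold change 0.08), Ctss (0.64) and Ctsz (0.54) did not pass. On leaving out 1 library 5 to 7 of the list, Adamts1 included where tested, rose and 2 to 3 fell, and the call of Timp2 was lost without replicate 2 or 3 of RANKL alone or replicate 1 or 2 of the surface proteins (adjusted p up to 0.0692). With heat-killed MJ2 against RANKL alone, Mmp12 and Adamts1 entered only through the heat-killed MJ2 libraries. Of the other 15, 3 rose, beside 3.37% of all genes tested (1 to 4 on leaving out 1 library with Mmp12 and Adamts1 counted). Plaur was among them and rose by 2.52 (SE 0.30, adjusted p = 0.00959), a call lost without replicate 1 of heat-killed MJ2 (adjusted p = 0.0537). Mmp12, macrophage elastase, held 32.6, 36.0 and 25.6 adjusted reads with heat-killed MJ2 and at most 0.975 with RANKL alone and 1.87 with surface proteins, and was at least 10.5-fold higher with heat-killed MJ2 against the floor of 3 reads per library. Against heat-killed MJ2, and Mmp12 aside, surface proteins left 1 of 16 higher, Mmp19 (log2 difference 1.42), and 1 lower, Plau (-2.19). These counts are near the shares over all genes tested, 5.08% higher and 4.97% lower. The call of Mmp19 was lost without replicate 1 of heat-killed MJ2 or replicate 2 of the surface proteins (adjusted p up to 0.0651).

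Of 18 acid secretion partners tested with surface proteins against RANKL alone, 5 fell and 1 rose (3 to 5 and 1 to 2 on leaving out 1 library), beside 7.32% and 10.2% of all genes tested. The list's median on the log2 scale was -0.24. Atp6v0d2, a proton pump subunit that is also needed for fusion, gave 2954, 3363 and 4790 adjusted reads with RANKL alone, 1907, 1466 and 1744 with heat-killed MJ2 and 1176, 528 and 972 with surface proteins. The 3 groups did not overlap. It fell by 2.10 with surface proteins (SE 0.35, adjusted p = 0.00772) and by 1.10 with heat-killed MJ2 (SE 0.22, adjusted p = 0.0435). Rab7b, a small GTPase of late endosomes, fell by 1.48 with surface proteins (SE 0.25, adjusted p = 0.00793), and Atp6v1b2, the bicarbonate exchanger gene Slc4a2 and Slc37a2 fell as well. Car13, another carbonic anhydrase gene, rose by 2.40 with surface proteins (SE 0.46, adjusted p = 0.0121) and by 2.04 with heat-killed MJ2 (SE 0.42, adjusted p = 0.0459). With heat-killed MJ2, Atp6v0d2 and Car13 were the 2 of 18 that passed, beside 4.26% of all genes tested. The call of Atp6v0d2 was lost on leaving out any 1 library and that of Car13 on leaving out any but replicate 3 of RANKL alone (adjusted p up to 0.127 and 0.131). Between the 2 treatments limma called 0 of the 18 (8 had an unadjusted p under 0.05), beside 10.1% of all genes tested. The median log2 difference of the list was 0.10, against 0.03 for all genes.

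Of 17 fusion and adhesion partners tested with surface proteins against RANKL alone, 4 fell and 2 rose (3 to 4 and 2 on leaving out 1 library), beside 7.32% and 10.2% of all genes tested. The list's median on the log2 scale was 0.00. Cd109 fell by 2.42 (SE 0.46, adjusted p = 0.0118), and Atp6v0d2, the tetraspanin gene Cd9 and the integrin gene Itgb3 fell. Cd200r1, an inhibitory receptor gene, rose by 2.43 (SE 0.22, adjusted p = 0.00126), and Cd47, which encodes the ligand of the fusion receptor SIRPα, rose by 1.37 (SE 0.17, adjusted p = 0.00308). With heat-killed MJ2, Atp6v0d2 fell and the chemokine gene Ccl2 rose by 2.96 (SE 0.32, adjusted p = 0.00726), or did not pass without replicate 1 of heat-killed MJ2 (adjusted p = 0.0515). Between surface proteins and heat-killed MJ2, 2 of the 17 were higher (Cd47, 1.38, and Sirpa, 1.04) and 2 lower (Itgb3, -2.20, and Ccl2, -2.56), beside 5.08% and 4.97% of all genes tested. The calls of Cd47, Sirpa and Itgb3 were lost without replicate 1 or 3 of heat-killed MJ2. Those of Sirpa and Itgb3 were also lost without replicate 2 of the surface proteins, and that of Itgb3 without replicate 3 of the surface proteins as well.

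Of 15 RANKL pathway regulators, 5 fell and 3 rose with surface proteins against RANKL alone (5 to 6 and 3 on leaving out 1 library), beside 7.32% and 10.2% of all genes tested. Nfatc1, which encodes the transcription factor NFATc1, gave 3810, 3885 and 4698 adjusted reads with RANKL alone, 1972, 1754 and 1964 with heat-killed MJ2 and 739, 297 and 511 with surface proteins. The groups did not overlap, in the same order as for Acp5, Ctsk and Ocstamp. Nfatc1 fell by 3.09 with surface proteins (SE 0.34, adjusted p = 0.00210) and by 1.12 with heat-killed MJ2 (SE 0.15, adjusted p = 0.0130). Fosl2, an AP-1 subunit gene, fell by 2.24 (SE 0.26, adjusted p = 0.00258) and 1.11 (SE 0.14, adjusted p = 0.0114) in these comparisons, and Tnfrsf11a, which encodes the receptor for RANKL, Mitf and Prdm1 fell with surface proteins. Irf8 rose by 2.83 with surface proteins (SE 0.46, adjusted p = 0.00756), and Bcl6 rose as well. Between surface proteins and heat-killed MJ2, Nfatc1 was lower by a log2 difference of -1.97 (SE 0.33, adjusted p = 0.0161) and Prdm1 by -1.41, while Bcl6 was higher by 1.61. With heat-killed MJ2 against RANKL alone, the calls of Nfatc1 and Fosl2 were lost without any 1 of the heat-killed MJ2 libraries (adjusted p up to 0.0622 and 0.0593). Between the treatments, the calls of Nfatc1 and Prdm1 were lost without replicate 1 or 3 of heat-killed MJ2, and that of Prdm1 also without replicate 2 of the surface proteins. Without replicate 3 of RANKL alone, the listed genes given above with an adjusted p from limma passed with surface proteins, other than Timp2 (adjusted p = 0.0528). With heat-killed MJ2 those given with an adjusted p passed, other than Atp6v0d2 (adjusted p = 0.0763). The 10 reference genes had log2 fold changes between -0.71 and 0.92 over the 3 comparisons.

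**Figure D5:**
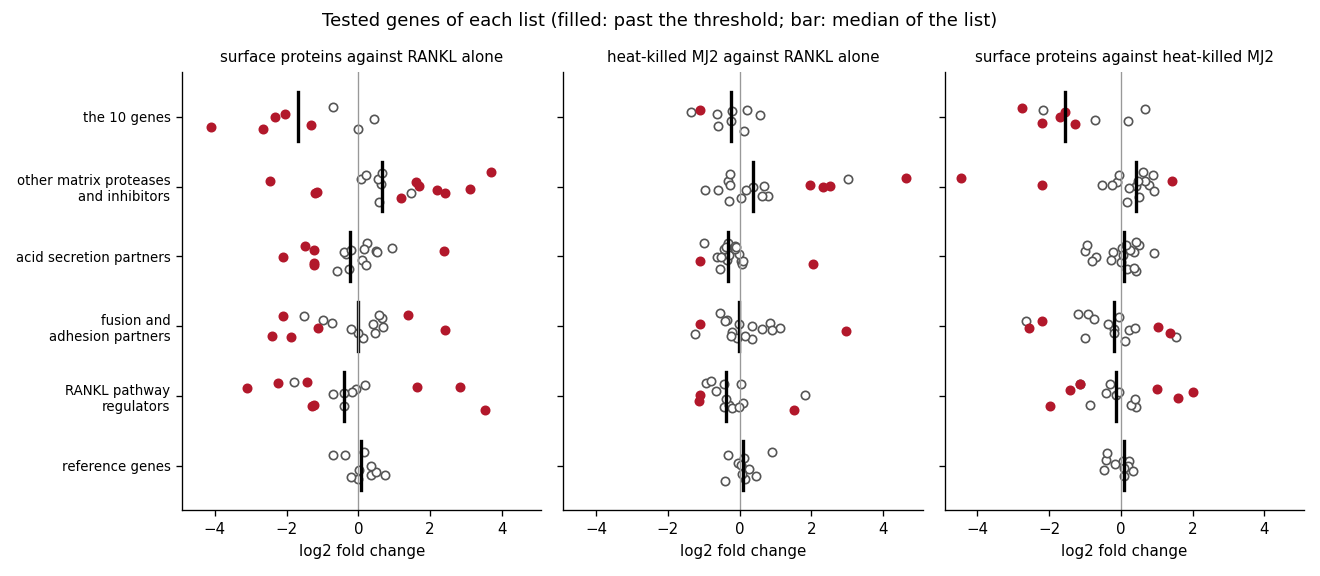
Each point is a tested gene of a list (rows) with its log2 fold change from limma (x axis) in the 3 comparisons (panels), filled where it passed the threshold, and bars mark the median of the list. With surface proteins against RANKL alone the median of the 10 genes stands at -1.69, that of the other proteases at 0.65 and that of the acid partners at -0.24.

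Of the 8 macrophage markers, 6 were higher and 2 (Cd68 and Csf1r) lower with surface proteins than with RANKL alone without overlap of the groups, and with heat-killed MJ2 5 were higher, 1 (Csf1r) was lower and 2 overlapped. Over all genes tested, 48.4% did not overlap in the first of these comparisons and 30.2% in the second. Adgre1, which encodes the F4/80 antigen, gave 106, 93.9 and 26.7 adjusted reads with RANKL alone, 214, 255 and 186 with heat-killed MJ2 and 712, 1113 and 966 with surface proteins, the reverse order of Acp5 and Ocstamp. Lyz2, the lysozyme gene, gave 1518, 1064 and 420.1 adjusted reads with RANKL alone, 5950 to 6303 with heat-killed MJ2 and 4149 to 5913 with surface proteins, so heat-killed MJ2 was the highest group, as it was for Cd14. Within RANKL alone, replicate 3 was the lowest library for 6 of the 8 markers and the highest for 1 (Ptprc), and it was the library in which 9 members were highest. Csf1r, the receptor gene for the growth factor M-CSF, went down instead, with 8809 to 9877 adjusted reads with RANKL alone, 5552 to 6575 with heat-killed MJ2 and 2657 to 4161 with surface proteins. Markers of other cell types were low but not all at the floor: the sums in any library were at most 41.8 adjusted reads for fibroblasts, 72.7 for osteoblasts (of which Runx2 held up to 66.8), 2.89 for T cells and 10.7 for B cells, and Ibsp was at 0 in every library.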

How the data were processed

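Libraries were made from 500 ng of total RNA with a 3′ mRNA kit (QuantSeq). The submitters' processing notes name Bowtie2, bedtools and mm10, with versions not given in the sources used here. By the study's methods the authors applied quantile normalization, and the values the authors deposited are log2 values for 23282 gene rows per library. The sorted columns are not identical, so their scaling is not fully known. Adjusted reads are 2 to the power of the deposited value, minus 1, which assumes that 1 was added before the log. Their totals were 5930926 to 6503682 per library. Reads carry no molecular identifiers, so the floor of 3 reads covers counting error only. No library column was identical to another, and the chi-square statistic per degree of freedom within groups was 6.90 to 18.5, so all 9 libraries were kept.

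Each comparison was fitted on its own 6 libraries with limma 3.58.1 (lmFit and eBayes) in R 4.3.3, with no covariate, over the genes that reached 10 adjusted reads in 3 or more of them. Single members were also compared by exact two-sided permutation (scipy 1.17.1). Other steps used Python 3.11.15, numpy 2.4.6, pandas 2.3.3 and matplotlib 3.10.9. The fit was tested on simulated data. The members, gene lists and marker lists were chosen with earlier results of these data known. All 10 members are named; from each list up to 2 genes in each direction per comparison are named, those with the largest change past the threshold, and further genes of short counts were named after their values were seen. A listed gene that this rule selects is not reported here. Genes that entered a test through 1 group, with no library of the other at 10 adjusted reads, were left out of the members' and lists' counts after seeing the data. Coordinates are from GENCODE M21 (GRCm38), and promoters from RefSeq (GRCm38.p6). As alternatives, the libraries were quantile normalized or brought to equal totals, the filter and the added constant were varied, all 9 libraries were put in 1 fit, a replicate block or a robust trend was used, the thresholds were changed and single libraries were omitted. For the gene lists, omissions and the block were added after seeing the data.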

Additional observations from a re-analysis of the deposited data

How the results depend on the processing

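Every member tested was recomputed under up to 17 alternatives per comparison. With surface proteins against RANKL alone, Acp5, Ctsk, Car2, Dcstamp and Ocstamp passed in each alternative. Over all genes, 1901 passed there and 3163 with no fold limit, and leaving out 1 library gave 1357 to 1822. The log2 fold change of Clcn7 changed sign, between -0.37 and 0.19 on leaving out 1 library.

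With heat-killed MJ2 against RANKL alone, 461 genes passed, 267 with no filter, 289 with the replicate block, 799 at an unadjusted p and 81 to 347 on leaving out 1 library. The member count of 1 became 0 with no filter, 0 in the fit over all 9 libraries, 0 with the replicate block, 2 with the trend and robust fit, 2 at an unadjusted p (Ocstamp was added in both), and 0 to 1 on leaving out 1 library. On leaving out 1 library Mmp14 ran from -0.15 to 0.93 and Car2 from -0.019 to 0.38.

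Between surface proteins and heat-killed MJ2, 1098 genes passed, 1949 with no fold limit and 362 to 1176 on leaving out 1 library. The 5 members became 3 with no filter, 3 with the replicate block (Acp5, adjusted p = 0.0503, and Dcstamp, 0.0511, were lost) and 3 to 4 on leaving out 1 library. They became 6 with no fold limit (Ctsk was added). Mmp14, which entered that test only through its heat-killed MJ2 libraries, is not counted. Mmp9, Car2 and Ocstamp passed in each alternative.

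The replicate numbers were not taken as pairing: deviations of same-numbered libraries correlated at 0.018 to 0.106 over 9 pairs of libraries, although 9 of 9 libraries correlated best with their own number, a hint from the data. Of the listed genes named with heat-killed MJ2 against RANKL alone, the calls of Plaur, Atp6v0d2, Car13 and Fosl2 were lost with the block. The cause of these changes was not tested. Mmp14 has no value under alternatives whose filter removed it. Calcr did not reach 10 adjusted reads in any library, and Mmp14 ran from 8.39 to 40.6 adjusted reads within RANKL alone.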
